A study of Homo sapiens with 6 samples.

Results

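Gene expression of DU145 cells that received vehicle was followed over time in culture, using 3 of the 6 arrays of the series. DU145 cells are human and come from a prostate cancer metastasis to the brain. They were seeded in RPMI with fetal serum, moved to RPMI with 5% dextran-charcoal-treated serum a day later and, after a further day, received vehicle or 25 ng/ml hepatocyte growth factor (HGF), which activates the receptor tyrosine kinase c-MET. Total RNA was taken after 2, 8 and 24 hours. Every condition has 1 array (Affymetrix U133plus2.0), and the other 3 arrays hold the HGF-treated cells of the same times. The 3 arrays used here are labelled as no HGF, and vehicle is the word of the study's methods. The vehicle arrays were compared as 8 over 2 hours, 24 over 2 hours and 24 over 8 hours. These comparisons share arrays, so a high or low value on 1 array enters 2 of them.

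With 1 array per time point there is no replicate error within the vehicle arm and no p-value was computed there. A difference between times cannot be told apart from a difference between single arrays or cultures. The deposited intensities were scaled to a mean of 150 on each array and raised to a floor of 30, so a ratio with a value under the floor is a bound. For a gene with several probe sets their log2 ratios were averaged. The selection asked for 1 probe set that differed 2-fold or more and for an averaged log2 ratio of 0.5 or more in the same direction, which is the form of rule that the study used for HGF over vehicle. Of 19775 named genes, 10506 had a probe set above the floor on at least 1 vehicle array, and these are the genes described.

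Culture medium is not constant over such a time course. Cells take up nutrients and sterols, release metabolites and growth factors, and go on dividing, and several gene programmes follow these conditions closely. Genes of sterol synthesis are controlled together by SREBP transcription factors, which INSIG proteins hold in the endoplasmic reticulum when sterols are plentiful. Metallothioneins, small proteins that bind zinc and other metals, are induced through the metal-responsive factor MTF1 and by glucocorticoids. Immediate early genes respond within minutes to serum, growth factors or handling and decline afterwards.

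The 3 vehicle arrays had deposited means from 149.1, at 24 hours, to 205.4, at 8 hours, and 34.3% to 36.7% of probe sets lay above the floor after scaling. All 10 DU145 epithelial markers (KRT8, KRT18, KRT19, KRT7, EPCAM, CDH1, DSP, CLDN7, MET and EGFR) were above the floor. Of 10 leukocyte, 8 endothelial and 7 erythroid markers, 8, 8 and 3 had a probe set with 1 gene symbol, and none of these was. Of 9 fibroblast markers only COL1A1 was, at 65.0 or less. The 3'/5' intensity ratio of the ACTB control probe sets was 1.17, 1.36 and 1.63 over the vehicle times, and 1.13, 1.31 and 1.71 over the HGF times. That of the GAPDH control probe sets was 0.925 to 1.01 over all 6 arrays. The poly-A spike-in controls had a geometric mean of 359, 98.3 and 256 on the vehicle arrays. The part of these array differences in the results below was not tested.

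The vehicle arrays of 2 and 8 hours were the most alike and those of 8 and 24 hours the least. The share of probe sets above the floor on both arrays that differed at least 2-fold was 1.14% for 8 over 2 hours, 2.31% for 24 over 2 hours and 5.70% for 24 over 8 hours. The median log2 ratio of these probe sets was 0.03, -0.16 and -0.19, and after quantile normalization, which gives all arrays the same distribution, it was 0.00, 0.01 and 0.02. The numbers of genes at 24 hours therefore depended on the scaling. From 2 to 8 hours 56 genes (0.533% of 10506) were higher and 39 (0.371%) lower, against 34 and 53 after quantile normalization. At 24 over 2 hours 28 genes (0.267%) were higher and 230 (2.19%) lower, against 74 and 80. At 24 over 8 hours 49 (0.466%) were higher and 587 (5.59%) lower, against 217 and 219. The same call in both scalings was held by 33 higher (0.314%) and 34 lower genes (0.324%) at 8 over 2 hours, 28 (0.267%) and 80 (0.761%) at 24 over 2 hours, and 49 (0.466%) and 218 (2.08%) at 24 over 8 hours. Genes are named below as higher or lower only where they passed in both scalings, unless stated otherwise.

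At 8 over 2 hours 34 genes were lower at 8 hours in both scalings, led by OCEL1. KISS1R, the receptor of kisspeptin, had a scaled intensity of 180 at 2 hours, 76.5 at 8 hours and 217 at 24 hours. CRABP2, which carries retinoic acid to its nuclear receptor, had 438, 191 and 491, and OCEL1 had 145, 50.6 and 128. Each was thus low at 8 hours alone, by 2.35-fold, 2.30-fold and 2.86-fold against 2 hours. YJU2, a splicing factor, was 2.46-fold lower, from 83.9 to 34.1, and was 63.5 at 24 hours. SOD2, the mitochondrial superoxide dismutase, had 106, 41.6 and 58.7, and the ribosomal protein gene RPL27A had 105, 42.1 and 68.0, each on the 1 probe set that lists it as its sole gene. These 2 genes were also lower at 8 hours between the HGF arrays, by log2 ratios of -1.24 for SOD2 and -1.34 for RPL27A.

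The genes higher at 8 hours were led by AP1S1, the small sigma subunit of the clathrin adaptor complex AP-1. Its 3 probe sets rank the arrays alike, with 55.4, 198 and 123 on the first, 75.7, 251 and 163 on the second and 74.1, 217 and 182 on the third at 2, 8 and 24 hours. Its mean log2 ratio was 1.70 at 8 over 2 hours and 1.18 at 24 over 2 hours. PIP5K1A, a kinase that makes the membrane lipid PIP2, had 164, 666 and 392 on its brightest probe set and a mean log2 ratio of 1.63. CLGN, a chaperone of the endoplasmic reticulum, had 86.0, 215 and 80.3. UBE2NL, a near copy of the ubiquitin-conjugating enzyme gene UBE2N, had 70.3, 207 and 82.8 on a probe set of the class that can detect several transcripts. MROH6 had 49.1, 124 and 65.3, and the actin-binding protein NEXN had 61.4, 135 and 61.9 on its brighter probe set. AP1S1 was still high at 24 hours, whereas CLGN, UBE2NL and NEXN were near their 2-hour value, with log2 ratios of -0.10, 0.24 and 0.01 at 24 over 2 hours.

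The sterol synthesis genes were the list with the lowest median at 8 hours. Of 20 genes above the floor, 17 had a negative log2 ratio at 8 over 2 hours and 19 after quantile normalization. Of all 10506 genes 4849 and 5277 did. The sterol median was -0.45 (quantile -0.47) beside 0.01 (0.00) for all genes. The selection was passed by 2 of the 20, NSDHL and EBP, both lower and both in both scalings, against 0.324% of all genes. EBP, the sterol isomerase, had 642, 319 and 664 on its first probe set and 787, 526 and 859 on its second. NSDHL, which removes a methyl group of the sterol nucleus, had 163, 80.8 and 118 on one and 114, 76.9 and 99.99 on the other. FDPS, the farnesyl diphosphate synthase, had 2676, 1714 and 3026, and DHCR7, the last reductase of cholesterol synthesis, had 656, 473 and 809 on its brighter probe set. FDPS and DHCR7 had log2 ratios of -0.64 and -0.45 and did not pass. SREBF2, which codes for SREBP-2, was among the 3 genes with a positive ratio, at 0.41. At 24 over 2 hours the median was back at -0.07 (quantile 0.06), and at 24 over 8 hours it was 0.35 (0.54). In the latter comparison 14 of 20 ratios were positive (15), beside 3980 of all 10506 genes (5679).

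As a list, the sterol genes did not follow this time course on the HGF arrays. Their median there was 0.01 at 8 over 2 hours, -0.47 at 24 over 2 hours and -0.35 at 24 over 8 hours. At 8 over 2 hours 10 of the 20 were positive there and 10 negative. At 24 over 2 hours 20 of 20 sterol genes were negative there, beside 53.8% of all genes. FDPS had 2577, 3641 and 2106 there, high at 8 hours where the vehicle array was low. Other single genes differed from FDPS. HMGCS1 and INSIG1 had log2 differences of -0.71 and -0.66 at 8 over 2 hours in the limma fit over both arms described below. Neither passed the adjusted limma test. The difference between the arms has no replicate and was not tested.

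The promoters of EBP and NSDHL are shown because these 2 genes of 1 pathway were low together at 8 hours. The RefSeq table of GRCh38.p14 promoters, each from 250 bases before to 50 bases after the gene start, has entries for 18 of the 20 genes. The CCAAT box (letters CCAAT on either strand) is found in 16 of these 18 and in 34.6% of all 35116 promoters, and 3 or more in 3.26% of all. EBP holds 3 matches and NSDHL 5, of which 2 overlap. Capitals mark the matches, and a match describes these letters only. EBP is on the plus strand at chrX:48521558-48521857 and NSDHL on the plus strand at chrX:152830813-152831112.
EBP: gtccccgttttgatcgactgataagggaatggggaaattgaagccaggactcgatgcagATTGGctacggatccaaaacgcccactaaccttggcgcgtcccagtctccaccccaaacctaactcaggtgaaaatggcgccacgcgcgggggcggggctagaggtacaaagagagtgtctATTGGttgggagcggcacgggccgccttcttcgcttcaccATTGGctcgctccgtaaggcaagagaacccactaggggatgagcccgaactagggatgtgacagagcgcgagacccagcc
NSDHL: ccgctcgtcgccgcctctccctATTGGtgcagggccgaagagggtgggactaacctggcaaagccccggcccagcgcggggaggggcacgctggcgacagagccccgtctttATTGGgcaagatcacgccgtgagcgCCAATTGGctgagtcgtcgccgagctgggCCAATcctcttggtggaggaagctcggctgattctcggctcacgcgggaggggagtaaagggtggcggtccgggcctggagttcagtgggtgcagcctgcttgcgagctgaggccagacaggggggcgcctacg

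Immediate early genes were lower at 8 than at 2 hours for 13 of 20 genes above the floor (14 after quantile normalization). Of all 10506 genes 4849 had a negative ratio (5277). The immediate early median log2 ratio was -0.19 (-0.20) beside 0.01 (0.00) for all genes. In both scalings 2 of the 20 passed, beside 0.324% of all genes. EGR1, a zinc-finger transcription factor, had 521, 246 and 320 on its brightest probe set, and NR4A3, an orphan nuclear receptor, had 72.2, 35.3 and 51.6 on its brighter one. Both were also lower at 8 hours between the HGF arrays, where EGR1 had 2836, 1412 and 1228 and NR4A3 had 383, 31.9 and 26.8. Glycolysis genes were lower at 8 hours for 15 of 20 (16), with a median of -0.23 (-0.25), and none passed. Among proteasome subunits 21 of 25 were lower (20), with a median of -0.16 (-0.13), and 1 passed, beside the same 0.324%. This was PSMB2, through a dim probe set with 137, 40.2 and 46.8, while its brightest probe set had 2446, 2274 and 2502.

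At 24 over 2 hours 80 genes were lower at 24 hours in both scalings, led by UTP3. UTP3, a component of the complex that assembles the small ribosomal subunit, had 435, 288 and 157 at 2, 8 and 24 hours and was 2.78-fold lower. RPAP3, a co-chaperone in assembly of RNA polymerase, had 295, 329 and 184 on one probe set and 109, 115 and 46.2 on the other. RPS6KB1, the S6 kinase downstream of mTORC1, had 242, 136 and 91.3 on one of its 3 probe sets and 305, 398 and 192 on another. UTP3 was thus lower at each time than at the time before, while RPAP3 was low at 24 hours alone, and the probe sets of RPS6KB1 differed in their 8-hour value.

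The other genes with the lowest ratios have diverse roles. UHMK1, a kinase that phosphorylates splicing factors, had log2 ratios from -1.49 to -0.41 on 4 probe sets, with 407, 367 and 145 on the probe set with the lowest ratio. DHX29, an RNA helicase of translation initiation, had 227, 334 and 142 on its brighter probe set, and DHX9, another RNA helicase, had 292, 201 and 103 on the lowest of 3. ABCD3, a peroxisomal fatty acid transporter, had 179, 183 and 54.3 on one probe set and 493, 561 and 299 on the other. ZNF669 and ZNF23, zinc-finger genes, had 84.8, 51.0 and 38.0 and 66.6, 68.3 and a value under the floor. SPTY2D1, a histone chaperone, had 79.1, 62.9 and 34.4 on its brighter probe set. The histone gene H2AC14 had 81.8 and 77.4 at 2 and 8 hours and was under the floor at 24 hours, at least 2.73-fold lower, on a probe set that can detect near-identical histone copies.

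Members of several lists were lower at 24 than at 2 hours in both scalings. SLC7A11, the cystine transporter that feeds glutathione synthesis, had 759, 1160 and 342 on its brightest probe set and a mean log2 ratio of -0.95. FKBP5, a co-chaperone of steroid receptors and a glucocorticoid and androgen target, had -0.82, with 330, 401 and 211 on one probe set and 106, 104 and 36.7 on the dimmest. CYP1B1, a cytochrome P450, had 326, 463 and 180 on its brightest probe set. The splicing factor SRSF5 had 1671, 1333 and 698, and EPRS1, the glutamyl-prolyl-tRNA synthetase, had 608, 471 and 220 on one probe set. RARS1, the arginyl-tRNA synthetase, had 1521, 1085 and 712, and ID2, an inhibitor of basic helix-loop-helix factors, had 527, 383 and 233 on its brighter probe set. RARS1 and ID2 passed after scaling only, with log2 ratios of -1.09 and -1.06 that were -0.96 and -0.87 after quantile normalization.

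Among the genes higher at 24 than at 2 hours, TMUB1, a ubiquitin-like membrane protein, had 37.8, 54.0 and 89.5 and was 2.37-fold higher. LAMA5, a laminin chain of basement membranes, had 306, 443 and 612, and ULK1, the kinase that starts autophagy, had 32.6, 65.3 and 67.3. The antisense transcript ICA1-AS1 had 52.1, 75.1 and 107. For HES7, KREMEN2 and YBX2 the 2-hour value was under the floor, and with 69.7, 63.3 and 64.2 at 24 hours they were at least 2.32-fold, 2.11-fold and 2.14-fold higher. SMIM27 had 143, 140 and 313 on its brighter probe set. TMUB1, LAMA5 and ICA1-AS1 had an intermediate value at 8 hours, ULK1 was already high there, and SMIM27 was high at 24 hours alone.

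All 7 metallothionein genes above the floor had a positive log2 ratio at 24 over 2 hours in both scalings. Of all 10506 genes 3643 did after scaling and 5474 after quantile normalization. The metallothionein median was 0.64 (quantile 0.65) beside -0.08 (0.01) for all genes. MT1H alone passed, with 1039, 1038 and 2141 at 2, 8 and 24 hours, 2.06-fold higher. MT2A had 3532, 3963 and 5992, MT1X had 1873, 2324 and 3304 on its brighter probe set, and MT1E had 2911, 3559 and 4826 on its own. MT1M had 59.9, 50.2 and 85.3 and is the only one measured by a probe set outside the classes that can detect near-identical copies, so the others cannot be counted as independent genes. The HGF arrays had their higher values by 8 hours, with MT1H at 955, 2861 and 2857 and MT2A at 3836, 6437 and 6239, and 6 of 7 genes were positive at 24 over 2 hours. MT1M was the exception there, with a log2 ratio of -0.04. Of the zinc importers on the same list, SLC39A6 had 2228, 2908 and 1750 on its brightest probe set in vehicle, with a mean ratio of -0.73 at 24 over 2 hours after scaling and -0.59 after quantile normalization, where it no longer passed.

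The promoters of MT1H, the gene that passed, and of MT1X are shown for the metal response core, the letters TGCACNC or TGCGCNC on either strand, to which MTF1 is known to bind. Entries exist for 3 of the 7 metallothionein genes and the core is found in all 3, and in 29.6% of all 35116 promoters, with 3 or more in 2.30%. MT1H holds 8 matches and MT1X 4, none overlapping and marked by capitals. Both are on the plus strand of GRCh38.p14, MT1H at chr16:56669564-56669863 and MT1X at chr16:56682220-56682519.
MT1H: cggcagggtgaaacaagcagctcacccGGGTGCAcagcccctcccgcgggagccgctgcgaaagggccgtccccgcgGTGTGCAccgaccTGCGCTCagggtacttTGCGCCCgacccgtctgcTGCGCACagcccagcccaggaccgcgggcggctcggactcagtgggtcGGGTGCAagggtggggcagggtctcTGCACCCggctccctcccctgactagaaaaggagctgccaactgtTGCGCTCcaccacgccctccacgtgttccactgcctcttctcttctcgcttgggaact
MT1X: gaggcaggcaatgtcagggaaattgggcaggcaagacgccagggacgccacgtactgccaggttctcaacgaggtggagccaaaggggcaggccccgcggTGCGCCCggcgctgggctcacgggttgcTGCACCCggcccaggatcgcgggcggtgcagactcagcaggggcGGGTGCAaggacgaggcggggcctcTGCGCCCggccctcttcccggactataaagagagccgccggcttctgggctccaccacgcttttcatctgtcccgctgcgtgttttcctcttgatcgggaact

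**Figure D1:**
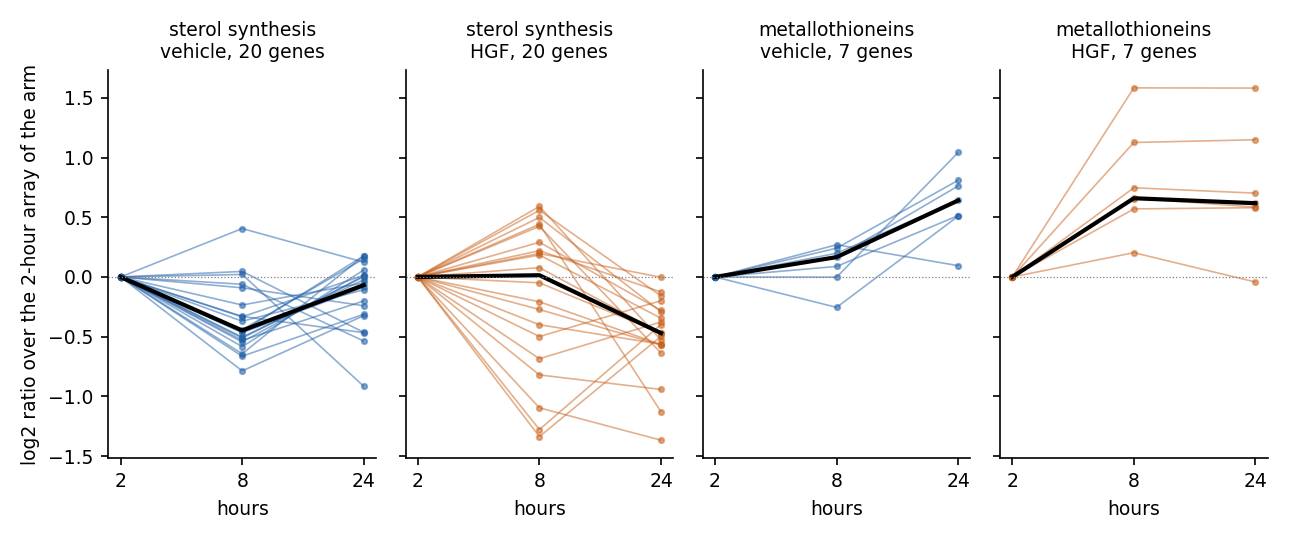
Log2 ratio over the 2-hour array of the same arm at 2, 8 and 24 hours, with 1 thin line per gene and the median in black. In vehicle the sterol synthesis median was -0.45 at 8 hours and -0.07 at 24 hours, and the metallothionein median was 0.17 and 0.64, while with HGF the sterol median was 0.01 and -0.47 and the metallothionein median 0.66 and 0.62.

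The DNA replication, mitosis and ribosome biogenesis lists had lower medians than all genes at 24 over 2 hours in both scalings. All genes had a median of -0.08 after scaling and 0.01 after quantile normalization. A negative ratio was held by 6619 of all 10506 genes after scaling and by 4737 after quantile normalization. Of 39 genes of the G1/S transition and DNA replication 33 had a negative ratio after scaling and 25 after quantile normalization, with medians of -0.25 and -0.13, and none passed. Of 40 mitosis and spindle genes 34 were negative (28), with medians of -0.22 and -0.10. ASPM and NEK2 passed after scaling only, and ASPM, a spindle-pole protein, had 590, 737 and 503 on its brightest probe set. Ribosomal protein genes had a median of 0.26 after scaling and 0.02 after quantile normalization, so their place above the other genes depended on the scaling. Ribosome biogenesis genes had 33 of 36 negative ratios after scaling and 21 after quantile normalization, with medians of -0.18 and -0.10.

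At 24 over 8 hours the lower genes were the largest group of all, 218 in both scalings. Histone genes H2BC4, with 102, 196 and 66.2 at 2, 8 and 24 hours, and H4C8, with 72.0, 152 and 58.1 on its brighter probe set, were 2 of 3 replication-type histones among 16 above the floor that passed, beside 2.08% of all genes, and H2AC14 was the other. MAP1B, a microtubule-associated protein, had 107, 192 and 31.4 on one of 3 probe sets and a mean log2 ratio of -1.55. RB1CC1, a subunit of the ULK1 complex, had 236, 398 and 144 on its brighter probe set, and FAM13B had 61.7, 97.0 and 31.8. PPIP5K2, an inositol pyrophosphate kinase, had 127, 158 and 60.3. CCNE2, a cyclin of the G1/S transition, had 145, 209 and 111 on its brighter probe set and was the only 1 of 39 genes of its list to pass, beside 2.08% of all genes. In all of these the 8-hour array held the highest value except for H2AC14, which was about level at 2 and 8 hours.

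Receptors, adhesion genes and transporters were among the genes lower at 24 than at 8 hours. DSG2 and DSC2, desmosomal cadherins, had 658, 941 and 552 and 255, 325 and 131 on their brightest probe sets and were the 2 of 21 junction genes that passed, beside 2.08% of all genes. GCLC, the catalytic subunit of glutamate-cysteine ligase in glutathione synthesis, had 628, 965 and 464, and SLC7A11 had a log2 ratio of -1.39. LRP6, a Wnt co-receptor, had 165, 215 and 131, and FAS, a death receptor, had 65.8, 106 and 39.1. TGFB2, a TGF-beta ligand, had 177, 283 and 107, and CANX, a lectin chaperone of the endoplasmic reticulum, passed after scaling only with a ratio of -0.60 (quantile -0.48). MET itself had 1420, 1529 and 1148 on its brightest probe set and 145, 208 and 69.9 on another, with mean log2 ratios of 0.22, -0.51 and -0.73 for the 3 comparisons. After quantile normalization MET passed at 24 over 8 hours, with -0.54, and not at 24 over 2 hours, with -0.34.

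At 24 over 8 hours 6399 of all 10506 genes had a negative log2 ratio (4572 after quantile normalization) and 3980 a positive one (5679). Of 35 splicing and RNA-binding genes above the floor, 33 had a negative log2 ratio at 24 over 8 hours and 29 after quantile normalization. The median was -0.38 (quantile -0.24) beside -0.09 (0.03) for all genes, and 4 passed after scaling, of which 1 in both scalings, beside 5.59% and 2.08% of all genes. The 1 was DDX17, an RNA helicase, with a mean ratio of -0.86 over 5 probe sets that ranged from -1.31 to -0.22. Of 24 YAP and TAZ targets 21 were negative (16), with a median of -0.26 (-0.14), and the numbers that passed were again 4 and 1. The other direction was held by respiratory chain subunits, of which 36 of 42 were positive (35) with a median of 0.17 (0.22) and none passed, and by glycolysis genes, of which 16 of 20 were positive in both scalings with a median of 0.20 (0.21).

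The 49 genes higher at 24 than at 8 hours were led by genes that had been low at 8 hours. KISS1R, CRABP2, OCEL1 and RDM1 were 2.83-fold, 2.58-fold, 2.52-fold and 2.55-fold higher, and RDM1, a recombination-type RNA-binding protein, had 124, 57.8 and 148. TNNC1, the slow and cardiac troponin C, had 449, 230 and 557, and TMEM141 had 208, 144 and 339. APOE, the lipid carrier, had 110, 74.99 and 151, 97.1, 74.6 and 156, and 52.3, 43.2 and 87.4 on its 3 probe sets. TAGLN, an actin-binding protein of smooth muscle, had 44.3, 41.8 and 99.99 on one probe set. At 24 hours KISS1R, CRABP2, RDM1 and TNNC1 were thus near their 2-hour value, with log2 ratios of 0.27, 0.17, 0.26 and 0.31, while TMEM141 and TAGLN had 0.71 and 0.55.

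Time patterns were selected with a mean log2 ratio of at least 0.5 at each of the 2 steps and a probe set of 2-fold or more in at least 1 step. By this rule 0 genes were higher at both steps and 0 were lower at both steps, in either scaling. UTP3, TMUB1 and ICA1-AS1 ran one way over the 3 arrays and did not reach 2-fold in a single step after scaling. By the same rule 94 genes were highest at 8 hours and 29 lowest, which became 45 and 89 after quantile normalization, with 44 and 29 in both. The largest peaks were those of UBE2NL, CLGN, PIP5K1A, NEXN and INAVA, and INAVA had 30.5 and 67.4 at 2 and 8 hours and a value under the floor at 24 hours. The largest dips were those of OCEL1, KISS1R, CRABP2, RDM1 and ADA, and ADA, the adenosine deaminase, had 314, 171 and 328 on one probe set and 319, 139 and 328 on the other. Of the 94 peak genes 80 had a negative ratio at 8 over 2 hours between the HGF arrays, beside 50.4% of all genes, with a median of -0.53. A peak or a dip rests on the single 8-hour vehicle array, which enters both steps.

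Genes lower and higher at 24 hours differed in genomic span, which is given as a description. The median distance from gene start to gene end was 52.0 kb for the 230 genes lower at 24 over 2 hours and 58.9 kb for the 587 lower at 24 over 8 hours, beside 29.8 kb for all genes. It was 15.96 kb and 11.5 kb for the genes higher in these comparisons. After quantile normalization the medians were 50.8 kb and 53.01 kb for lower genes and 15.9 kb and 11.5 kb for higher genes. The ACTB 3'/5' ratio given above was also highest on the 24-hour vehicle array of the 3, and its part in this difference was not tested.

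**Figure D2:**
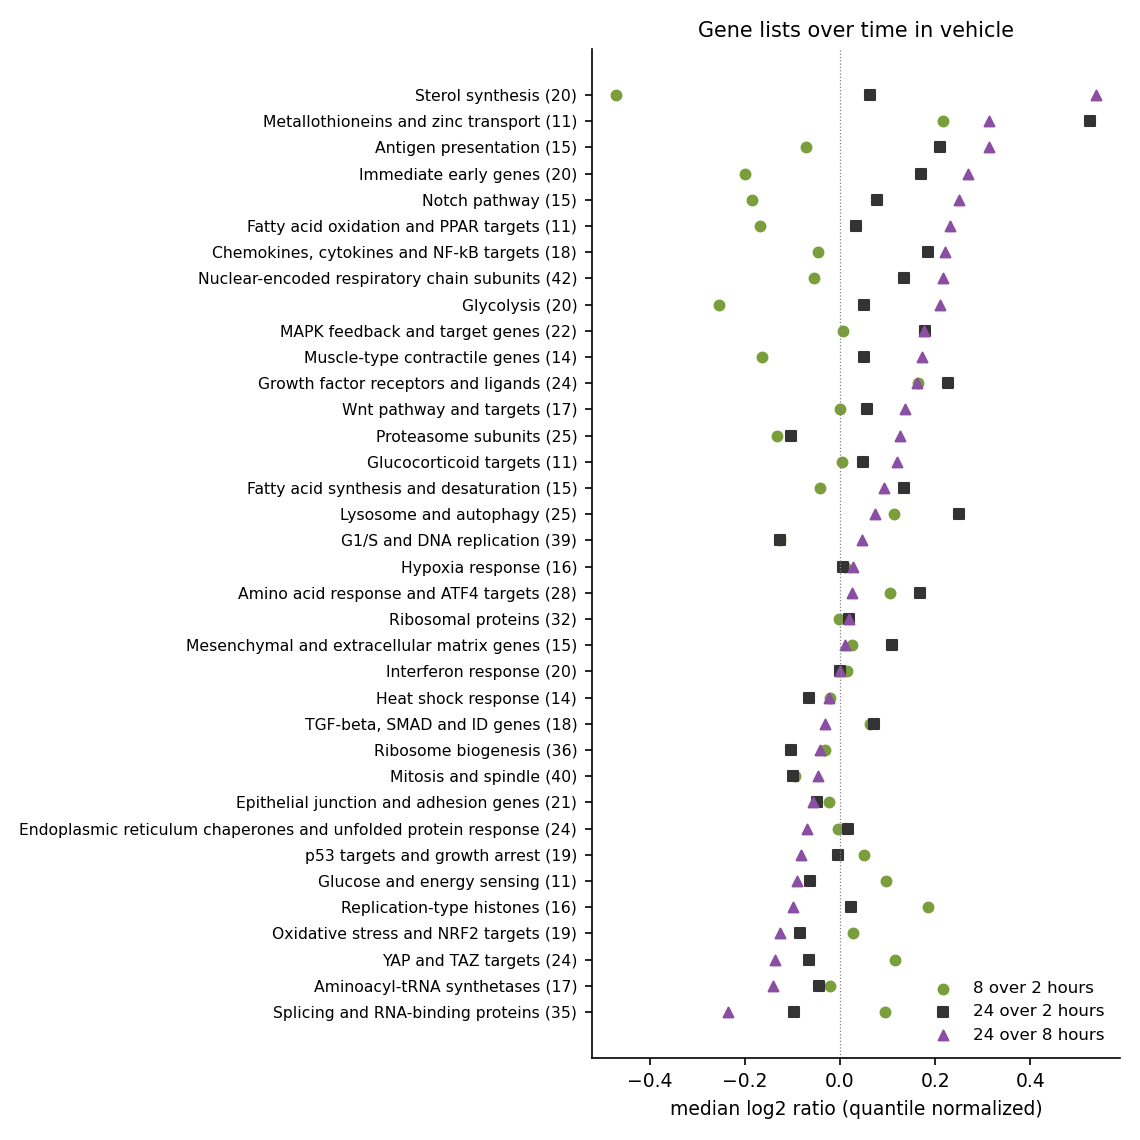
Median log2 ratio of each gene list between vehicle arrays after quantile normalization, for 8 over 2 hours (circles), 24 over 2 hours (squares) and 24 over 8 hours (triangles), with the number of genes above the floor in brackets. Lists with at least 11 such genes are shown, without the zinc-finger gene list. Sterol synthesis had the lowest median at 8 over 2 hours, -0.47, and the highest at 24 over 8 hours, 0.54, and splicing and RNA-binding genes had the lowest at 24 over 8 hours, -0.24.

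The HGF arrays of the same times are separate arrays, so they show which time differences recurred in cells that also received HGF. The response to HGF is itself part of these arrays, and its part in a recurring difference was not tested. Of the 80 genes lower at 24 over 2 hours in both scalings, 34 passed in the same direction between the HGF arrays, 0 in the opposite direction, and 74 had a negative ratio, beside 53.8% of all genes. After quantile normalization of the HGF arrays 69 of the 80 were negative, beside 43.9% of all genes. Of the 28 higher genes 3 passed and 19 were positive, beside 41.4% of all genes. Of all 10506 genes 334 passed as lower and 156 as higher at 24 over 2 hours between the HGF arrays. Genes lower in both arms included UTP3, with 433, 229 and 207 in HGF, ZNF669, with 85.8, 46.5 and 40.9, and UHMK1, SLC7A11, DHX9, GATC and FKBP5. The genes higher in both arms were AP1S1, MT1H and FAM89B, and AP1S1 had 102, 138 and 395 on its brightest probe set with HGF. For 8 over 2 hours 3 of 33 higher genes passed in the same direction, namely AP1S1, MROH6 and the integrin subunit gene ITGA2, and 9 in the opposite one. ITGA2 had 83.0, 180 and 107 in vehicle and 109, 281 and 607 in HGF on its brighter probe set. The study lists AP1S1 and ITGA2 among the genes up-regulated by HGF. Of the 34 lower genes 6 passed in the same direction and 0 in the opposite one. At 8 over 2 hours 393 of all 10506 genes passed as higher and 903 as lower between the HGF arrays. A negative ratio was held by 20 of the 34, beside 50.4% of all genes. The 6 were EGR1, NR4A3, RPL27A, SET, SOD2 and TXN. On the brightest probe set alone SET and TXN had positive vehicle ratios, 0.18 and 0.12.

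Genes selected for the step from 8 to 24 hours in vehicle mostly had the opposite sign in the HGF arm. Of the 218 genes lower in vehicle, 0 passed in the same direction and 52 in the opposite one. Of all 10506 genes 454 passed as higher and 235 as lower between these HGF arrays. A positive ratio was held by 199 of the 218, beside 45.5% of all genes. The 218 had a median of 0.40 against -0.93 in vehicle. Of the 49 higher genes 0 passed in the same direction and 9 in the opposite one, and 40 had a negative ratio, beside 49.1% of all genes. Across 10506 genes the Pearson correlation between the vehicle and HGF log2 ratios was -0.22 for 8 over 2 hours, 0.40 for 24 over 2 hours and -0.50 for 24 over 8 hours, where genes are not independent replicates. Both comparisons with a negative correlation contain the 8-hour arrays of both arms. At 8 over 2 hours 11.6% of probe sets differed at least 2-fold between the HGF arrays, against 1.14% between the vehicle arrays. At 24 over 8 hours the shares were 5.85% and 5.70%. The part of either 8-hour array in the correlations was not tested. The difference between the arms was not tested, since it has 1 array for each condition.

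**Figure D3:**
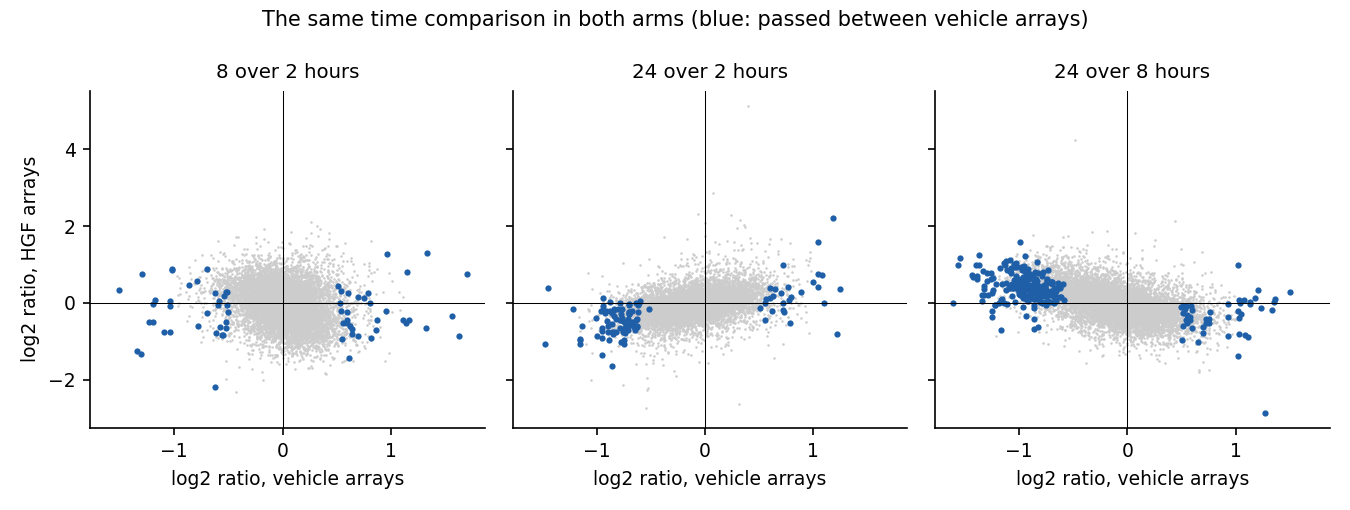
Log2 ratio of each of 10506 genes between vehicle arrays (horizontal) and between HGF arrays (vertical) for the 3 time comparisons. Genes that passed between vehicle arrays in both scalings are blue. The blue genes lower at 24 over 2 hours lie mostly below 0 in HGF, 74 of 80, and those lower at 24 over 8 hours mostly above 0, 199 of 218.

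A time difference shared by both arms was tested with limma over all 6 arrays, with HGF or vehicle as a block. With 1 array for each condition, the error in this fit comes from disagreement between the arms over time, not from replicates. A gene whose HGF response changes with time has a larger error, so a count of 0 does not show that time had no effect. Of 10002 genes tested, 0 (0%) passed a Benjamini-Hochberg adjusted p of 0.05 in each of the 3 contrasts, with smallest adjusted p of 0.998, 0.963 and 1.00 for 8 over 2, 24 over 2 and 24 over 8 hours. At an unadjusted p under 0.05 limma gave 224, 356 and 167 of the 10002 genes, of which 143, 106 and 45 were higher. Each count is under 0.05 of the genes tested, the share that this cut passes where no gene differs. The smallest unadjusted p at 24 over 2 hours was that of ZNF669, with a log2 difference of -1.11 ± 0.16 (SE) and an adjusted limma p of 0.963. NPM3, a histone chaperone of the nucleolus, had 1.07 ± 0.16, with 362, 629 and 710 in vehicle and 456, 829 and 1022 in HGF. RARS1 had -1.09 ± 0.17 and UTP3 -1.27 ± 0.22, each lower in both arms. At 8 over 2 hours RPL27A had -1.32 ± 0.22, GIT1 0.88 ± 0.16 and IL4R, a cytokine receptor subunit, 1.22 ± 0.24. At 24 over 8 hours SDHAF4, an assembly factor of succinate dehydrogenase, had 1.01 ± 0.18. None of these differences passed the adjusted limma test.

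**Figure D4:**
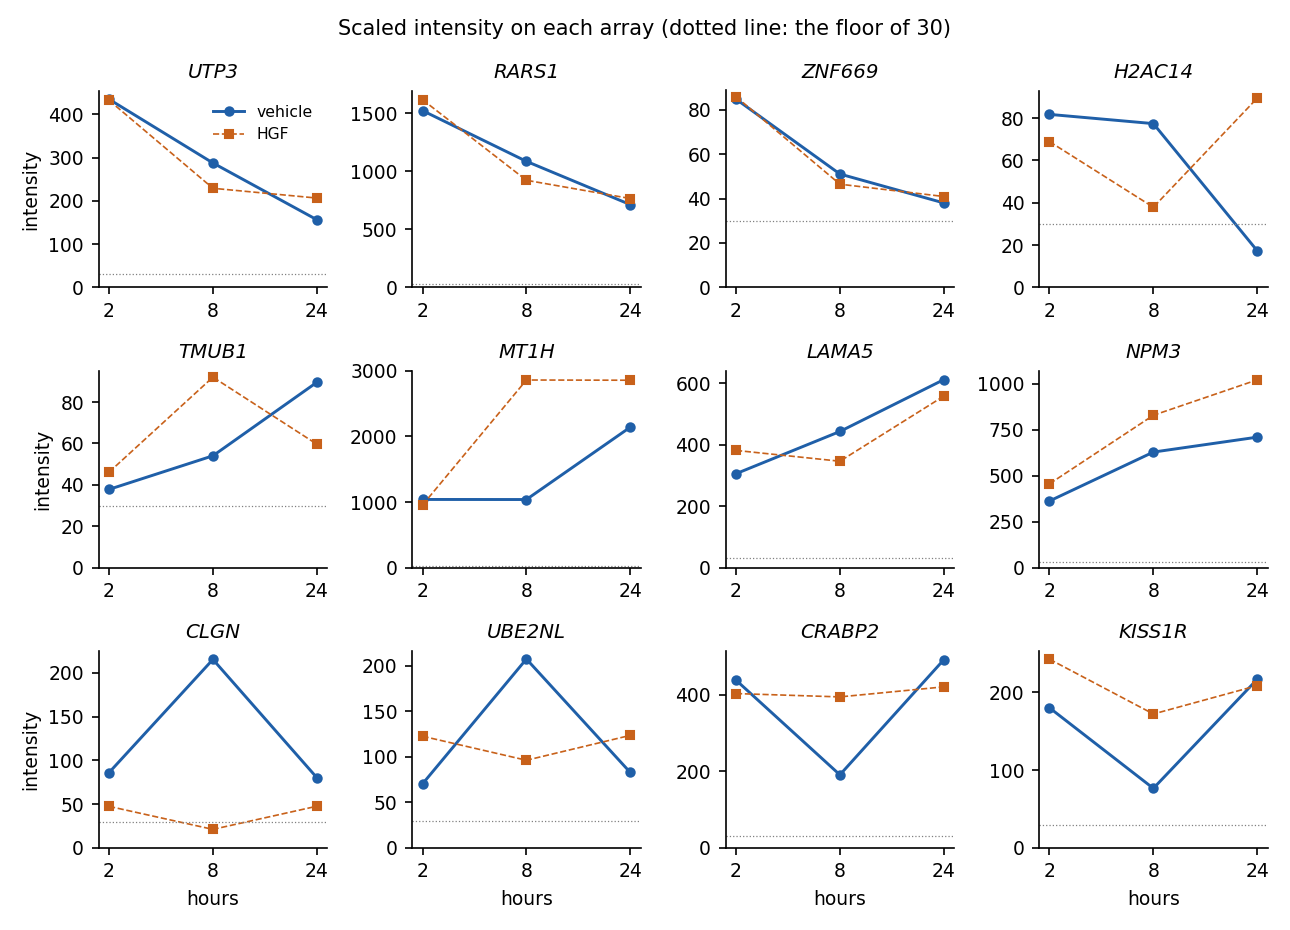
Scaled intensity of 12 genes with 1 probe set at 2, 8 and 24 hours in vehicle (blue circles) and HGF (orange squares), with 1 array per point and the floor of 30 dotted. UTP3, RARS1 and ZNF669 were lower at 24 than at 2 hours in both arms, MT1H and NPM3 higher in both, and CLGN, UBE2NL, CRABP2 and KISS1R show a peak or a dip at 8 hours in vehicle.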

How the data were processed

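The authors deposited linear intensities for 54675 probe sets per array. The submitters' processing notes list MAS5, whose version and target are not given in the sources used here. Quantile normalization, a mean of 150 and a floor of 30 are described in the study's methods. The deposited intensities hold none of these steps, so scaling and flooring were done here, with quantile normalization as a second setting. The platform annotation lists 42898 probe sets, of which 41097 have 1 symbol, 1801 several, and 11777 more are unnamed here. Only probe sets with 1 symbol name a gene.

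Genes passed with at least 2-fold in 1 probe set and a mean log2 ratio of at least 0.5 (1.41-fold). For limma (lmFit and eBayes), genes above the floor on at least 3 arrays were used, HGF or vehicle was a block, and 2 arrays of different treatment stand for each time. The number of arrays limits the precision. The 46 gene lists hold 1136 entries, of which 121 have no probe set with 1 symbol. Arrays, lists and the rule for named genes were chosen with earlier results of these data known. That rule takes the highest and lowest genes of each comparison, up to 4 genes per list, genes that pass in both arms, the largest peaks and dips, the 10 smallest limma p per contrast and the markers, 128 genes in all, of which the text reports a part. FDPS, DHCR7, SREBF2, HMGCS1, INSIG1, MT2A, MT1X, MT1E and MT1M were named after their values were seen. Steps were tested on simulated data. Promoters are from RefSeq, GRCh38.p14. Computation used R 4.3.3 with limma 3.58.1, and Python 3.11.15 with pandas 2.3.3, numpy 2.4.6 and matplotlib 3.10.9.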

Additional observations from a re-analysis of the deposited data

Results flagged for a closer look

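Among the genes taken by the naming rule, 18 passed in one direction between vehicle arrays, in both scalings, and in the other direction between HGF arrays of the same times. Over all genes there were 9 such cases higher in vehicle at 8 over 2 hours, and 52 lower and 9 higher at 24 over 8 hours. Of all 10506 genes, 903 passed as lower at 8 over 2 hours between the HGF arrays. At 24 over 8 hours 454 passed as higher there and 235 as lower. The difference between the arms was not tested. At 8 over 2 hours the log2 ratios in vehicle and HGF were 0.86 and -0.71 for H4C8, 1.63 and -0.85 for PIP5K1A, and 0.69 and -0.85 for RPS24, whose brighter probe set had a vehicle ratio of -0.03. At 24 over 8 hours vehicle was lower and HGF higher for 11 of the named genes. These were ABCD3 (-1.33 and 0.83), DNAJC3 (-0.84 and 0.64), DSG2 (-1.02 and 0.94), H2AC14 (-1.37 and 1.24), ITGA2 (-1.03 and 1.05) and LRP6 (-0.86 and 0.56). The others were MAP1B (-1.55 and 1.17), MET (-0.73 and 0.86), RB1CC1 (-1.43 and 0.73), RPAP3 (-1.08 and 0.83) and SLC7A11 (-1.39 and 0.71). Vehicle was higher and HGF lower for the named genes IGFBP7 (0.65 and -1.01), IL11 (0.51 and -0.95), TAGLN (0.70 and -0.79) and TNNC1 (1.28 and -2.85). The 8-hour arrays of both arms enter each of these cases.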

How the results depend on the processing

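Counts are given in the order higher and lower at 8 over 2, at 24 over 2 and at 24 over 8 hours, followed by genes with the same 24 over 2 hour call in both arms. After scaling they were 56, 39, 28, 230, 49, 587 and 69. Quantile normalization gave 34, 53, 74, 80, 217, 219 and 37, ratios centred on their median 45, 48, 75, 68, 176, 208 and 34, and a 2% trimmed mean 109, 89, 171, 158, 280, 407 and 69. Without the floor they were 2641, 2213, 2328, 3006, 2218, 3655 and 1211, and with a floor of 60 they were 16, 13, 9, 108, 19, 335 and 33. The brightest probe set gave 47, 33, 31, 93, 43, 334 and 24, leaving out _s_at and _x_at probe sets 43, 36, 21, 130, 35, 377 and 36, and probe sets at 100 or more 41, 33, 17, 229, 33, 534 and 86. A 3-fold threshold gave 5, 1, 3, 14, 1, 51 and 0, and no condition on the mean 104, 78, 41, 352, 67, 762 and 142. The median over probe sets gave 46, 36, 25, 201, 48, 535 and 55, and only probe sets above the floor 79, 52, 36, 300, 62, 720 and 101. The cause of these differences was not tested.

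limma called 0 of 10002 genes, against 224, 356 and 167 at an unadjusted p under 0.05. Without a filter it called 1 gene, ZNF565, in 8 over 2 and 24 over 2 hours (limma adjusted p = 0.0166). This setting keeps genes above the floor on fewer than 3 arrays, whose values are mostly the floor itself and hold little spread. Leaving out each array gave 0 to 1 genes, the 1 being MMP1 at 24 over 2 and 24 over 8 hours without the 24-hour vehicle array, where the lone 24-hour array is assumed to vary like the rest. Other limma settings gave 0. Single log2 ratios changed sign for IL11 at 24 over 8 hours (-0.59) and MYO9B at 8 over 2 hours (-0.0824) without the floor, and for KIF23 at 24 over 8 hours (0.0877) without _s_at and _x_at probe sets. With the brightest probe set they did so at 8 over 2 hours for RPS24 (-0.0334), SET (0.18) and TXN (0.12), and for TXN at 24 over 2 hours (0.02). By replicate number no paired analysis was possible because every condition has the number 1 alone, and the block in limma was HGF or vehicle.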
